A study of Mus musculus with 12 samples.

Results

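The histone cluster genes are mostly replication-dependent histone genes of the mouse, which lie side by side in a few genomic clusters. They were taken here as all genes of the deposited count table whose symbol begins with Hist1h, Hist2h, Hist3h or Hist4h, which gave 64 of 19878 genes. By class, 6 encode the linker histone H1, 16 encode H2A, 17 encode H2B, 12 encode H3 and 13 encode H4. In the GENCODE annotation of mm10, 51 members lie on chromosome 13, 9 on chromosome 3, 3 on chromosome 11 and 1, Hist4h4, on chromosome 6. One H2B member, Hist3h2bb-ps, is annotated as a processed pseudogene, and the other 63 have a coding sequence.

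The libraries come from translating ribosome affinity purification of the arcuate nucleus of C57BL/6 mice that carry Pomc-CreER (Pomc-CreERT2 in the methods) and ROSA26eGFP-L10a. Tamoxifen lets the Cre made from the Pomc promoter switch on a GFP-tagged ribosomal protein L10a, and the label then stays in every cell that has ever recombined and in its descendants. All 4 groups carry both alleles and received tamoxifen. The groups, with 3 replicates each, are the P12 pull-down (RNA bound to beads with antibody to GFP, postnatal day 12), the P12 supernatant (the lysate left by the beads), the P60 pull-down and the P60 supernatant (postnatal day 60). The study calls the replicates biological, from independent experiments, and the sources used here do not say whether a replicate is 1 mouse or pooled mice.

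Core histones H2A, H2B, H3 and H4 form the protein spool around which DNA is wrapped, and linker histone H1 binds the DNA between spools. The cluster genes are transcribed mostly in S phase, have no introns in their usual form, and give mRNAs that end in a conserved stem-loop in place of a polyA tail. The stem-loop is bound by SLBP, which serves processing, translation and decay of these mRNAs. Replacement histones such as H3.3 and H2A.Z are encoded elsewhere, carry polyA tails and are made throughout the cell cycle, which is how most histone is supplied in neurons that no longer divide. The missing tail bears on the values here, because in the labels one entry gives the molecule as polyA RNA and another as depleted of ribosomal RNA. The methods text describes libraries from depleted total RNA and names no selection for tails.

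The stem-loop is shown because it is the feature that sets these mRNAs apart. Letters that match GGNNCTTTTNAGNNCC were searched on the transcript strand after the stop codon of each GENCODE transcript. They were found in 42 of 63 coding members, at 22 to 59 bases from the stop codon, and in 61 of all 22527 coding genes (0.271%), so that 68.9% of the genes with a match are members. In all 42 members the 6 bases on either side of the loop can pair with each other. The searched letters already fix most of these pairs, so only the N positions of the stem could have failed to pair. The forms found are written 5′ to 3′ with the paired stem in capitals and the loop of 4 bases in lower case.
Most common form, 24 members of H1, H2A, H2B and H3, among them Hist1h1c, Hist3h2a and Hist3h2ba: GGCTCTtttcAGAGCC
Second form of these classes, 6 members, among them Hist1h3f and Hist1h3c: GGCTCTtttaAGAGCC
Hist2h2ac alone: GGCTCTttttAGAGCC
Most common form in H4, 7 members, among them Hist4h4, Hist1h4h and Hist1h4m: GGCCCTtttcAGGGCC
Hist1h4i and Hist2h4: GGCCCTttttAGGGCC
Hist1h4b and Hist1h4j: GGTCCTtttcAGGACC
The classes differ in the middle of the stem. All 11 H4 members with a match have CC or TC at the free positions of the left arm, and all 31 other members with a match have CT there.

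Of the 21 coding members with no match, 17 have under 60 annotated bases after the stop codon, so the stretch that could hold the letters is mostly not annotated. The other 4 are Hist1h2bc, Hist2h2be, Hist1h3g and Hist1h4a. Hist1h2bc, Hist2h2be and Hist1h4a have 742, 2192 and 154 annotated bases after the stop codon and hold AATAAA, the signal of ordinary polyadenylation, and Hist1h3g has 95 and does not. AATAAA was found after the stop codon in 17 members in all, and 22 of the 42 members with a stem-loop have more than 100 annotated bases beyond it.

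Copies of 1 class are near-identical, so a read can match several of them. Reads here came from single-end sequencing of 50 cycles, and coding sequences were therefore compared by stretches of 50 bases. At least 50% of these stretches also occur in a transcript of another gene for 47 of 63 members, all of them do for 8 members, and none do for 6 members (Hist1h1a, Hist1h1b, Hist1h1t, Hist2h2bb, Hist2h2be and Hist4h4). The median share was 10.9% in H1, 81.7% in H2A, 72.4% in H2B, 84.7% in H3 and 70.3% in H4. The start of the coding sequence of H4 copies shows the range, with bases that differ from Hist1h4m in capitals over the first 45 bases from the ATG (genes placed in mm10, GENCODE).
Hist1h4m (chr13:21811746-21812147, plus strand): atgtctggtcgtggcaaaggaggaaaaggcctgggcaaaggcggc
Hist1h4n (chr13:21831767-21832196, minus strand): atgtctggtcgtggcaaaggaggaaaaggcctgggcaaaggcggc
Hist1h4h (chr13:23531050-23531519, plus strand): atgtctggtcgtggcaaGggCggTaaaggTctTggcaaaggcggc
Hist2h4 (chr3:96261682-96263311, minus strand): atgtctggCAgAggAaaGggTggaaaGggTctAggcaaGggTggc
Hist4h4 (chr6:136801553-136804415, minus strand): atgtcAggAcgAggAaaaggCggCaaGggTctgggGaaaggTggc
Over all 312 coding bases, Hist1h4n is identical to Hist1h4m, Hist1h4h differs at 10 bases, Hist2h4 at 34 and Hist4h4 at 42. Hist1h4m nevertheless had 5328 counts over the 12 libraries and Hist1h4n had 0. How reads that match both were assigned is not given in the sources used here.

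In no library was there a count for 4 of the 64 members, Hist1h2ad, Hist1h2ao, Hist1h4n and Hist2h2aa1. All coding stretches of these 4 members are shared, whereas the remaining 4 members with fully shared coding stretches (Hist1h2ag, Hist1h4m, Hist2h3c1 and Hist2h3c2) had counts. Among the 23 members under 100 counts, 20 share at least 50% of their coding stretches, and among the 21 members with 1000 counts or more, 11 share less than 50%. Values of members with a high share are therefore uncertain as values of 1 gene. The 10 members with the most counts held 76.0% of all counts of the members. Of these 10, 7 have over 200 annotated bases after the stop codon, which is true of 22 of the 63 coding members.

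**Figure D1:**
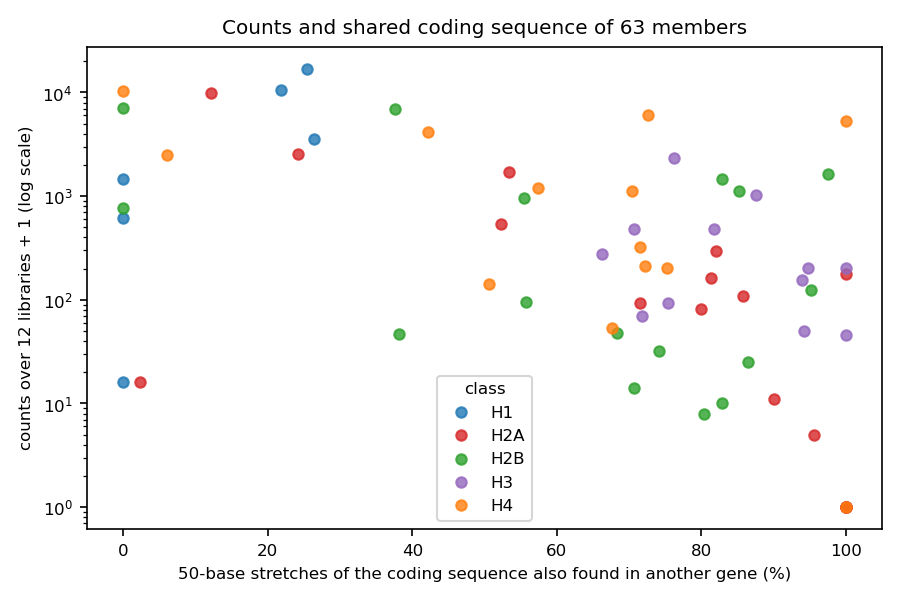
Each point is 1 of 63 coding members, with the share of 50-base coding stretches that also occur in another gene (horizontal, %) and the counts summed over 12 libraries plus 1 (vertical, log scale), coloured by class. The 4 members with no count lie on top of each other at 100% shared, and Hist1h4m stands alone at 100% shared with 5328 counts.

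Total counts ran between 6305778 and 19814679 for P12 pull-downs, 23785154 and 35249290 for P12 supernatants, 10791980 and 18774445 for P60 pull-downs, and 16143825 and 22422476 for P60 supernatants. Pull-downs detected 12812 to 14724 genes and supernatants 17023 to 17862. Pomc, the gene that drives the Cre, had 9.83, 21.9 and 81.7 CPM (counts per 1e+06 counts of the library) in the P12 pull-downs against 7.90, 7.71 and 9.36 CPM in the P12 supernatants. At P60 it had 3077, 2530 and 4510 CPM in the pull-downs against 26.1, 18.4 and 60.3 CPM in the supernatants. P12 pull-down 1, the shallowest library, lies close to the supernatants in Pomc. Pomc rose in the pull-down by 2.01 ± 0.53 at P12 and 6.96 ± 0.19 at P60 on the log2 scale (edgeR adjusted p = 0.0248 and 9.42e-27).

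Summed over all 64 members, the pull-downs held fewer histone counts than the supernatants at both ages. The sum was 228, 171 and 296 CPM in the P12 pull-downs against 611, 639 and 565 CPM in the P12 supernatants. At P60 it was 359, 211 and 268 CPM in the pull-downs against 533, 544 and 498 CPM in the supernatants. All pull-downs lie below all supernatants. The ratio of means was 0.382 at P12 and 0.533 at P60, or −1.39 and −0.91 on the log2 scale, with an SD of the log2 ratio over pairs of 0.49 at P12 and 0.40 at P60 (n = 3 pairs each). Libraries of an age with the same replicate number were taken as pairs, which the labels do not state. Without P12 replicate 1 the P12 value was −1.37. With the same scaling by library size alone, the median log2 fold change of all genes tested was −0.61 at P12 and −0.32 at P60. No test was run on the sums. In bulk samples, fewer cells of a type and less RNA per cell cannot be told apart.

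Every class had a lower mean in the pull-down at each age. H4 was at 56.2 ± 17.7 CPM (SD, n = 3) in the P12 pull-downs and 184 ± 5.08 CPM in the P12 supernatants, and at 67.3 ± 9.63 CPM in the P60 pull-downs and 172 ± 14.7 CPM in the P60 supernatants. H2A was at 27.2 ± 15.5 CPM in the P12 pull-downs and 88.2 ± 1.51 CPM in the P12 supernatants, and at 47.4 ± 17.7 CPM in the P60 pull-downs and 76.2 ± 5.21 CPM in the P60 supernatants. H2B was at 42.6 ± 12.3 CPM in the P12 pull-downs and 125 ± 7.06 CPM in the P12 supernatants, and at 47.4 ± 14.3 CPM in the P60 pull-downs and 96.6 ± 2.62 CPM in the P60 supernatants. For these 3 core classes the libraries of the fractions did not overlap in CPM at either age. With library sizes corrected by TMM scaling, H2A overlapped at P60, where P60 pull-down 1 exceeded P60 supernatant 1. H4 and H2B stayed apart.

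Linker histone H1 had the ratios nearest to 1 at P12, with 90.7 ± 28.4 CPM in the P12 pull-downs and 178 ± 30.4 CPM in the P12 supernatants (ratio 0.510). At P60 H1 was at 101 ± 36.3 CPM in the pull-downs and 155 ± 6.50 CPM in the supernatants (ratio 0.652), again with no overlap of libraries. H3, the class with the fewest counts, was at 14.5 ± 11.2 CPM in the P12 pull-downs and 29.9 ± 2.09 CPM in the P12 supernatants. At P60 H3 was at 16.8 ± 1.99 CPM in the pull-downs and 25.2 ± 5.60 CPM in the supernatants, where P60 pull-down 1 (18.9 CPM) exceeded P60 supernatant 3 (18.8 CPM). With library sizes corrected by TMM scaling, H1 and H3 also overlapped between fractions at P12. Of the counts of all members, H1 made up 39.3% ± 5.89 in the P12 pull-downs and 29.3% ± 3.24 in the P12 supernatants, and 35.4% ± 6.03 in the P60 pull-downs and 29.4% ± 0.354 in the P60 supernatants.

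**Figure D2:**
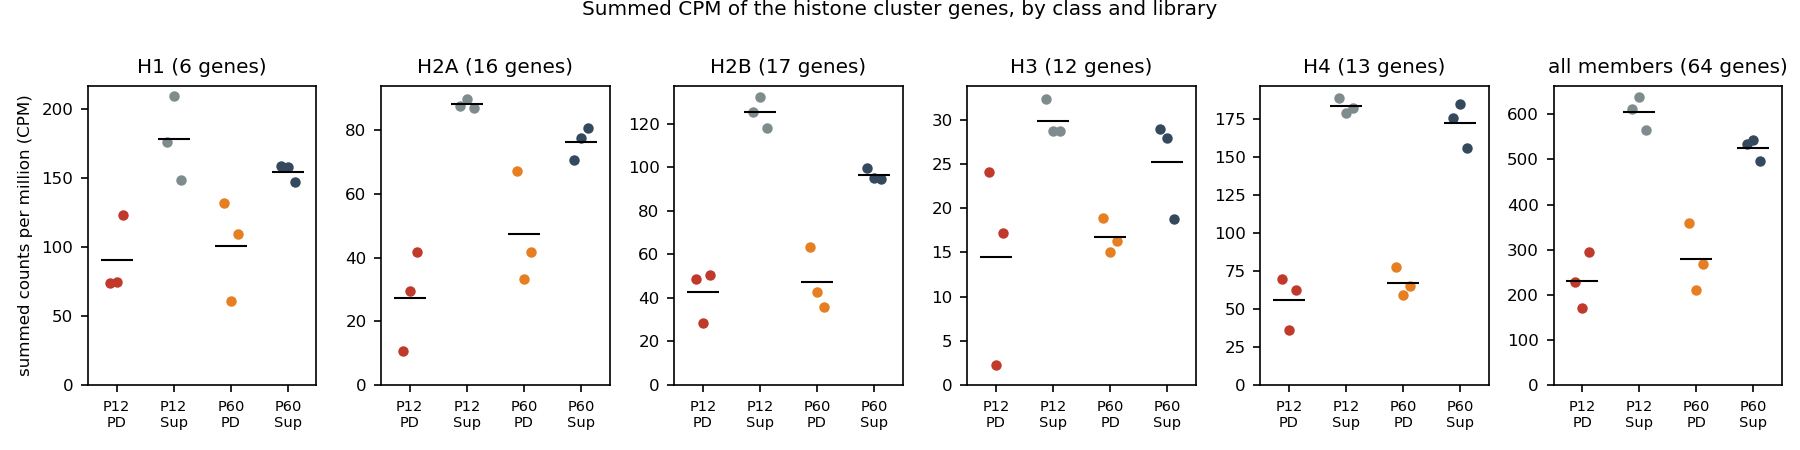
Summed CPM (vertical, from 0) of each class and of all members in each of the 12 libraries; PD is pull-down, Sup is supernatant, points are libraries and bars are group means (n = 3). Pull-down points lie below supernatant points in every panel except H3 at P60, where the 18.9 CPM of a pull-down exceeds the 18.8 CPM of a supernatant.

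Single members were uneven between pull-downs. In the P12 pull-downs 16 members had no count in any library and 21 had a count in all 3, against 4 and 55 members in the P12 supernatants. In the P60 pull-downs 15 members had no count and 27 had one in all 3 libraries, against 6 and 49 in the P60 supernatants. A member with 0 counts in 1 library and at least 20 in another of the same group was seen 11 times in the P12 pull-downs (17.2% of members, beside 12.1% of all genes) and 6 times in the P60 pull-downs (9.38% beside 5.38%), and 0 times in either group of supernatants (0.0604% of all genes in each). Hist1h3i, an H3 gene, had 13.2, 0 and 14.3 CPM in the P12 pull-downs. Hist1h2bc, an H2B gene, had 0, 4.50 and 0 CPM in the same libraries.

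At P12 the pull-down was set against the supernatant with edgeR's quasi-likelihood test, with the replicate number as a block and Benjamini-Hochberg adjustment over 14852 genes. Of the 64 members 42 passed the filter on low counts, mostly through their supernatant counts, and 5 fell in the pull-down while 0 rose. Over all genes tested, 1.95% were called lower and 6.28% higher. The 5 members were Hist1h4m and Hist4h4 (H4), Hist1h3f (H3), Hist3h2a (H2A) and Hist1h1c (H1.2, a linker histone), and no H2B member passed. The libraries of 29 of the 42 tested members (69%) did not overlap with the pull-down lower, beside 37.7% of all genes that passed the filter. Among all 64 members, with no filter, this held for 37, but the share over all genes without the filter was not computed, so this count has no background. Members seen almost only in the supernatants could come out only as lower.

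Hist1h4m had 3.65, 3.72 and 2.12 CPM in the P12 pull-downs against 32.5, 24.1 and 34.1 CPM in the P12 supernatants, and its log2 fold change was −2.93 ± 0.61 (SE, edgeR adjusted p = 0.00431). Hist1h3f had 0.476, 0.222 and 1.11 CPM in the P12 pull-downs against 14.0, 13.6 and 13.1 CPM in the P12 supernatants (−4.38 ± 1.14, edgeR adjusted p = 0.0231). The groups of both genes lie far apart, with every pull-down under every supernatant. Hist4h4, the sole member on chromosome 6, had 35.2, 11.9 and 28.9 CPM in the P12 pull-downs against 72.6, 72.3 and 66.1 CPM in the P12 supernatants (−1.25 ± 0.34, edgeR adjusted p = 0.0290). Hist1h1c had 25.5, 18.6 and 16.4 CPM in the P12 pull-downs against 59.4, 75.4 and 48.8 CPM in the P12 supernatants (−1.26 ± 0.32, edgeR adjusted p = 0.0203). In both the groups do not overlap. Hist3h2a had 4.76, 22.0 and 26.9 CPM in the P12 pull-downs against 54.1, 56.2 and 54.0 CPM in the P12 supernatants (−1.52 ± 0.45, edgeR adjusted p = 0.0469), and its lowest value belongs to P12 pull-down 1.

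The P12 calls depended on the fit. An offset for exonic length, from a smooth of each library on length, left 0 of the 5 calls, with values of −0.53 for Hist1h1c, −3.55 for Hist1h3f, −1.58 for Hist1h4m, −0.98 for Hist3h2a and −0.85 for Hist4h4. The offset used GENCODE exonic lengths, which are 2863 bases for Hist4h4, 2146 for Hist3h2a and 1560 for Hist1h1c. RefSeq gives 439, 508 and 725 bases for these genes, so their offset depends on the annotation. For Hist1h4m the lengths are 402 and 405 bases. Without the replicate block 8 members were called, with P12 replicate 1 left out 9, with P12 replicate 2 left out 2 (Hist1h1c, Hist1h3f and Hist4h4 were lost), and with scaling by library size alone 10, all of them lower. Of all genes, 289 were called lower in the fit above, 168 with the length offset, 472 without the block and 1387 with library size alone. Without P12 replicate 1 or 2 they were 249 and 241. Scaling by library size alone set the median of all genes at −0.61.

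Other abundant members were lower in all 3 pairs at P12 without passing the test. Hist3h2ba, an H2B gene, had 13.0, 7.44 and 23.9 CPM in the P12 pull-downs against 48.2, 52.3 and 40.3 CPM in the P12 supernatants (−1.47 ± 0.44, edgeR adjusted p = 0.0507). Hist2h2ab, an H2A gene, had 0.476, 1.44 and 2.72 CPM in the P12 pull-downs against 15.5, 16.4 and 14.6 CPM in the P12 supernatants (−3.20 ± 0.97, edgeR adjusted p = 0.0544). Hist1h4h had 9.52, 7.61 and 11.3 CPM in the P12 pull-downs against 31.9, 32.3 and 33.2 CPM in the P12 supernatants (−1.45 ± 0.47, edgeR adjusted p = 0.0750). Hist1h1e (H1.4), the member with the highest mean CPM, was at −0.49 ± 0.28 (edgeR adjusted p = 0.380). With the length offset these values were −0.27 for Hist3h2ba, −1.92 for Hist2h2ab, −0.16 for Hist1h4h and 0.12 for Hist1h1e.

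At P60 the same test on 14444 genes took in 36 members, of which 6 fell in the pull-down and 0 rose, beside 4.53% of all genes called lower and 7.11% higher. They were Hist1h4h, Hist1h4m and Hist4h4 (H4), Hist2h2bb (H2B), Hist2h2ab (H2A) and Hist1h1d (H1.3), and no H3 member passed. Here too members passed the filter largely through the supernatants. The libraries of 23 of the 36 tested members (63.9%) did not overlap with the pull-down lower, beside 29.2% of all genes that passed the filter. Among all 64 members, with no filter, this held for 28, again with no share over all unfiltered genes to set beside it. The length offset called 6 members, the same 6, and 1 fit over all 12 libraries called 3. All genes called lower went from 655 to 654 with the offset and to 241 over all 12 libraries.

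Hist2h2bb shares none of its coding stretches with another gene. It had 14.7, 6.76 and 4.91 CPM in the P60 pull-downs against 34.7, 38.3 and 40.0 CPM in the P60 supernatants (−2.01 ± 0.32, edgeR adjusted p = 9.97e-06). Hist4h4 had 9.57, 16.9 and 12.9 CPM in the P60 pull-downs against 43.1, 45.8 and 40.9 CPM in the P60 supernatants (−1.53 ± 0.27, edgeR adjusted p = 5.57e-05). In both genes every supernatant was more than 2 times the highest pull-down. Hist1h4h had 12.5, 13.5 and 6.49 CPM in the P60 pull-downs against 39.1, 41.3 and 32.9 CPM in the P60 supernatants (−1.63 ± 0.28, edgeR adjusted p = 5.34e-05). Hist1h4m had 16.2, 10.6 and 10.7 CPM in the P60 pull-downs against 32.5, 38.3 and 30.5 CPM in the P60 supernatants (−1.23 ± 0.28, edgeR adjusted p = 0.00216). These H4 genes did not overlap between fractions either.

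Hist1h1d had 8.41, 1.81 and 1.30 CPM in the P60 pull-downs against 14.6, 13.9 and 11.9 CPM in the P60 supernatants (−2.05 ± 0.55, edgeR adjusted p = 0.00939). Hist2h2ab had 9.65, 1.49 and 3.71 CPM in the P60 pull-downs against 10.8, 15.8 and 18.3 CPM in the P60 supernatants (−1.72 ± 0.53, edgeR adjusted p = 0.0262). For both, P60 pull-down 1 was the highest of the pull-downs and the groups did not overlap. Each lost its call without P60 replicate 2, without P60 replicate 3, without the replicate block and in 1 fit over all 12 libraries. Hist3h2a and Hist1h1c, called at P12, were at −0.24 ± 0.22 and −0.47 ± 0.23 at P60 (edgeR adjusted p = 0.575 and 0.217).

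**Figure D3:**
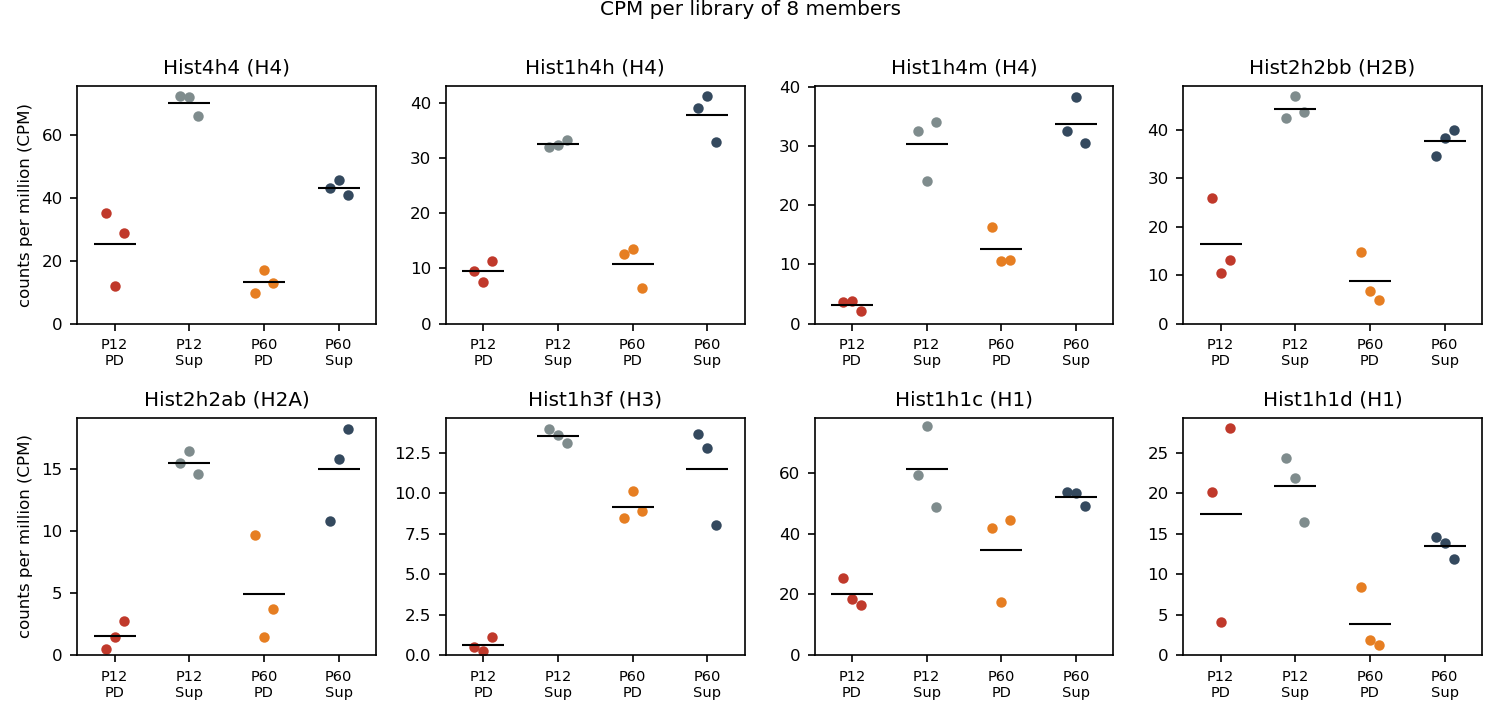
CPM per library (vertical, from 0) of 8 members, with PD for pull-down and Sup for supernatant; points are libraries and bars are means (n = 3). Hist1h3f lies at 0.222 to 1.11 CPM in the P12 pull-downs and at 8.49 to 10.1 CPM in the P60 pull-downs, and Hist4h4 lies lower in pull-downs than in supernatants at both ages.

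Whether the fractions differed more at one age was tested over 12 libraries and 15311 genes as the P60 difference less the P12 difference. Of 44 members tested 1 was called higher, Hist1h3f, beside 0.438% of all genes called higher and 0.686% called lower. Hist1h3f had 8.49, 10.1 and 8.90 CPM in the P60 pull-downs against 13.7, 12.8 and 8.05 CPM in the P60 supernatants, where the groups overlap (−0.07 ± 0.42, edgeR adjusted p = 0.946). With the P12 values given above, its difference was 4.23 ± 1.04 on the log2 scale (edgeR adjusted p = 0.0453). The call was lost with the length offset (3.54), without P12 replicate 2 (3.67) and without any 1 of the P60 replicates (4.02 to 4.55). It shares 76.2% of its coding stretches with other genes.

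Between ages, the pull-downs held 359, 211 and 268 CPM of histone counts at P60 and 228, 171 and 296 CPM at P12, and the groups overlap. The log2 ratio of the summed means was 0.27, or 0.07 with TMM effective library sizes, and under that scaling the ratios of H1 and H2B turned from 0.15 and 0.16 to −0.07 and −0.05. Of 24 members tested among 13570 genes, 0 passed, beside 3.11% of all genes called lower and 1.89% called higher. At an unadjusted p under 0.05 there were 4 members in edgeR's quasi-likelihood test, a count for which the share over all genes was not computed. DESeq2 called 1 member higher and 1 lower, beside 515 higher and 686 lower of the 13570 genes. Hist1h3f was at 3.72 ± 1.24 (edgeR adjusted p = 0.0995) and Hist1h1d at −2.42 ± 0.88 (edgeR adjusted p = 0.134).

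Supernatants of P60 held 533, 544 and 498 CPM of histone counts and those of P12 held 611, 639 and 565 CPM, with no overlap and a ratio of means of 0.868. H2B had the lowest ratio (0.771) and H4 the highest (0.938), which without Hist4h4 was above 1 (0.19 on the log2 scale), and libraries of the ages did not overlap for H2A and H2B. Most of the H2B change lay in 1 gene. The class mean was 125 CPM in the P12 supernatants and 96.6 CPM in the P60 supernatants, and Hist3h2ba alone was at 46.9 and 22.3 CPM. Among 45 members tested over 15251 genes, 12 fell and 3 rose at P60. As 20.8% of all genes tested were called lower and 20.9% higher, the 26.7% of members called lower lies near the background and the 6.67% called higher lies under it. The split by class was 3 lower of 5 tested H1, 2 of 10 H2A, 3 lower and 2 higher of 9 H2B, 3 lower of 10 H3, and 1 lower and 1 higher of 11 H4.

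Hist3h2ba had the lowest p of the members, with 24.0, 22.4 and 20.6 CPM in the P60 supernatants against 48.2, 52.3 and 40.3 CPM in the P12 supernatants (−1.11 ± 0.10, edgeR adjusted p = 3.05e-10). Hist4h4 had 43.1, 45.8 and 40.9 CPM in the P60 supernatants against 72.6, 72.3 and 66.1 CPM in the P12 supernatants (−0.74 ± 0.08, edgeR adjusted p = 1.54e-08). In both genes the ages did not overlap. The other H4 members tested lay between −0.19 and 0.80, and of these only Hist1h4i passed. Hist3h2bb-ps, the pseudogene, had 0.586, 1.07 and 0.991 CPM in the P60 supernatants against 2.40, 2.64 and 2.13 CPM in the P12 supernatants (−1.46 ± 0.37, edgeR adjusted p = 0.00210). Hist3h2a, which lies head to head with it, was at −0.31 ± 0.08 (edgeR adjusted p = 0.00345), so all 3 members of chromosome 11 fell.

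Among linker histones Hist1h1d was at −0.67 ± 0.13, Hist1h1b (H1.5) at −0.70 ± 0.25 and Hist1h1c at −0.28 ± 0.11, and the Hist1h1c call was lost with DESeq2, with scaling by library size alone, without P12 replicate 2 (−0.08) and without any 1 of the P60 replicates (−0.30 to −0.25). The calls of Hist1h1b, Hist1h3b, Hist1h3g and Hist2h2bb were lost as well when single replicates were left out. Among H3 genes Hist1h3c had 0.176, 0 and 0.0619 CPM in the P60 supernatants against 1.47, 0.559 and 0.851 CPM in the P12 supernatants (−3.64 ± 0.79, edgeR adjusted p = 0.000393). Hist1h3b (−1.56 ± 0.55) and Hist1h3g (−2.35 ± 0.75) fell as well, each with under 60 counts in any supernatant. Hist1h2ae, an H2A gene, was at −1.70 ± 0.53 and Hist2h2bb at −0.28 ± 0.09. These low H3 and H2A genes share 71.8% to 94.8% of their coding stretches with other genes.

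The 3 members that rose at P60 were Hist2h2be, Hist1h2bc and Hist1h4i. Hist2h2be had 6.98, 6.56 and 4.40 CPM in the P60 supernatants against 2.90, 2.02 and 2.30 CPM in the P12 supernatants (1.28 ± 0.25, edgeR adjusted p = 8.87e-05). Hist1h2bc had 12.1, 9.14 and 11.1 CPM in the P60 supernatants against 8.37, 6.31 and 5.39 CPM in the P12 supernatants (0.65 ± 0.18, edgeR adjusted p = 0.00313). Neither overlaps between ages, and these H2B genes hold AATAAA but no match to the stem-loop letters. The same is true of Hist1h4a, which did not pass (0.49 ± 0.47, edgeR adjusted p = 0.432). AATAAA also occurs, beside a stem-loop match, in members that fell, among them Hist3h2ba, Hist4h4 and Hist1h1d. Hist1h4i had 7.04, 8.88 and 6.01 CPM in the P60 supernatants against 5.05, 4.13 and 5.48 CPM in the P12 supernatants (0.54 ± 0.20, edgeR adjusted p = 0.0305), and it carries a stem-loop. Its call was lost without P12 replicate 1 or 2 and without P60 replicate 2.

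**Figure D4:**
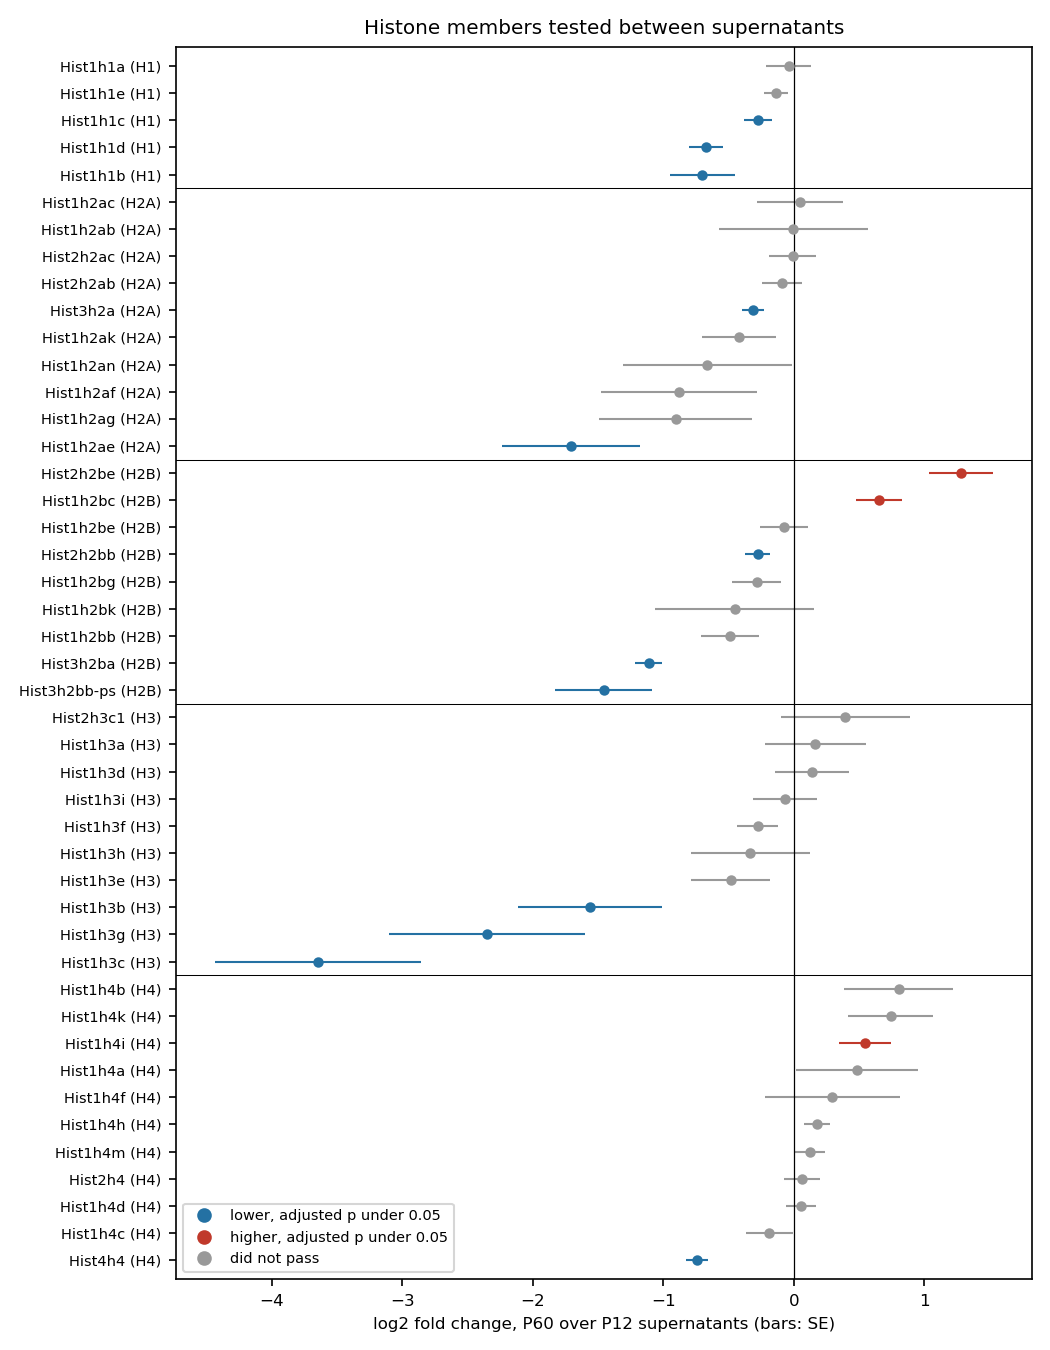
Log2 fold change of P60 over P12 supernatants (horizontal, bars are SE) for the 45 members tested, grouped by class, with blue for lower and red for higher at an adjusted p under 0.05 and grey for members that did not pass. The 12 members that fell are spread over all classes, and 2 of the 3 that rose, Hist2h2be and Hist1h2bc, are H2B genes.

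Both H2B genes that rose stand head to head with an H2A gene. Hist2h2be and Hist2h2ac start 239 bases apart on chromosome 3, and Hist1h2bc and Hist1h2ac start 251 bases apart on chromosome 13. There are 11 such pairs of H2A and H2B members in all, with 173 to 306 bases between the starts. For each of the 2 pairs the 250 bases before the RefSeq start of the H2A gene are shown (GRCm38.p6, minus strand, 5′ to 3′ towards the H2A gene). At their 5′ end these stretches run past the annotated start of the H2B gene, so they hold some of its first bases. Capitals mark the octamer ATTTGCAT, the CCAAT box and the TATA box letters TATAAA, each on either strand.
Hist2h2ac, chr3:96220881-96221130: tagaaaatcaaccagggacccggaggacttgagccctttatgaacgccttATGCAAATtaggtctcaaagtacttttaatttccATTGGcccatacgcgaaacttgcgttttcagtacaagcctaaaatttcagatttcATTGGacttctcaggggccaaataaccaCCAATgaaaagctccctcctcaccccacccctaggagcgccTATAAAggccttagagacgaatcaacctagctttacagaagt
Hist1h2ac, chr13:23683960-23684209: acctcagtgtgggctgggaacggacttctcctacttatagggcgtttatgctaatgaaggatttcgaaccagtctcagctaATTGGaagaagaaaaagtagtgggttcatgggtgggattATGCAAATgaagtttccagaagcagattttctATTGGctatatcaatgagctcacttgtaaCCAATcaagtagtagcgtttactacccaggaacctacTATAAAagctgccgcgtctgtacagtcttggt

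RefSeq gave a promoter of 300 bases (250 before and 50 after the start) for 58 of 64 members. On either strand, ATTTGCAT was in 7 of 16 H2A and 7 of 14 H2B promoters and in 0 of 6 H1, 0 of 10 H3 and 0 of 12 H4, beside 1.74% of 32851 mouse promoters. CCAAT was in all 16 H2A, 14 H2B, 10 H3 and 6 H1 promoters and in 3 of 12 H4, beside 37.4%. AAACACA, a motif known from H1 promoters, was in 5 of 6 H1, 2 H2A and 2 H2B promoters, beside 7.18%. TATAAA was in 4 H1, 11 H2A, 8 H2B, 4 H3 and 8 H4 promoters, beside 13.6%. A match is only a run of letters.

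The H2A genes across from the H2B genes that rose did not pass the test. Hist2h2ac had 6.39, 9.37 and 9.91 CPM in the P60 supernatants against 8.70, 8.83 and 7.69 CPM in the P12 supernatants (−0.01 ± 0.18, edgeR adjusted p = 0.974). Hist1h2ac had 2.64, 1.47 and 2.23 CPM in the P60 supernatants against 2.14, 1.96 and 1.82 CPM in the P12 supernatants (0.04 ± 0.33, edgeR adjusted p = 0.929). The ages overlap in both. As a ratio within a library, counts of Hist2h2be over Hist2h2ac were 1.09, 0.700 and 0.444 in the P60 supernatants against 0.333, 0.229 and 0.299 in the P12 supernatants. Counts of Hist1h2bc over Hist1h2ac were 4.60, 6.21 and 4.97 in the P60 supernatants against 3.90, 3.22 and 2.97 in the P12 supernatants. In both pairs all P60 ratios exceed all P12 ratios, which restates the values above, since these pairs were chosen because their H2B gene rose. There are 2 more pairs with both genes tested. Hist1h2ae (−1.70) faces Hist1h2bg (−0.29 ± 0.19, edgeR adjusted p = 0.240) at 176 bases, so that the H2A gene was the lower of the pair. Hist3h2a (−0.31) faces Hist3h2bb-ps (−1.46) at 173 bases, where the H2B member was the lower.

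**Figure D5:**
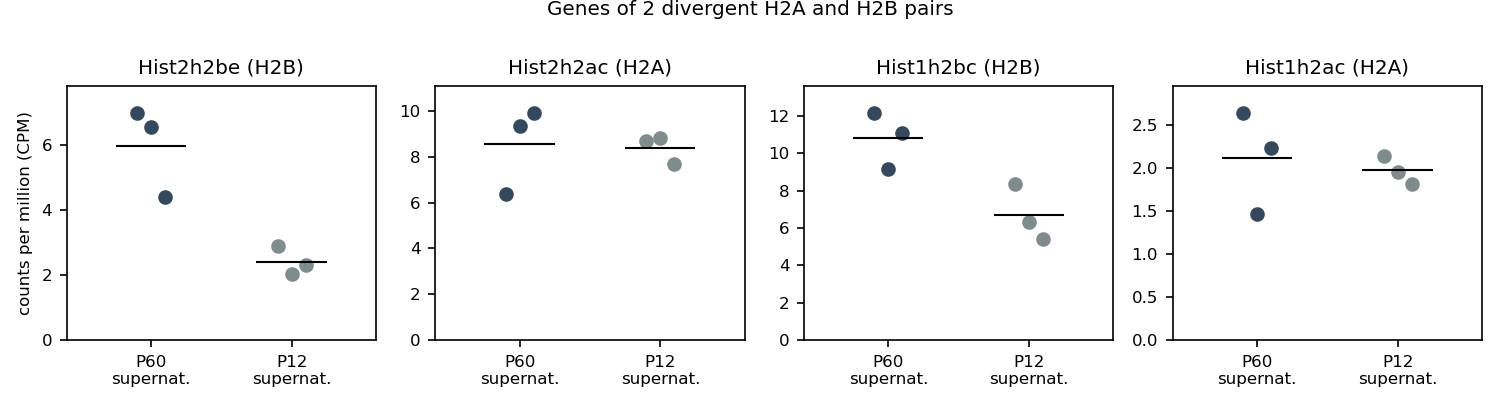
CPM per library (vertical, from 0) in the supernatants for the genes of 2 head-to-head pairs; points are libraries and bars are means (n = 3). The H2B genes Hist2h2be (4.40 to 6.98 CPM at P60 against 2.02 to 2.90 CPM at P12) and Hist1h2bc separate by age, and the H2A genes Hist2h2ac and Hist1h2ac overlap.

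The replacement histone genes, listed from knowledge of the families, are the other source of histone mRNA. The list holds 11 genes. Between pull-down and supernatant, edgeR's quasi-likelihood test called 0 of 11 tested at P12 and 0 of 10 tested at P60, with medians of −0.41 at P12 and −0.18 at P60. Summed, they were at 531 ± 42.0 CPM in the P12 pull-downs and 853 ± 52.1 CPM in the P12 supernatants, and at 610 ± 124 CPM in the P60 pull-downs and 775 ± 42.0 CPM in the P60 supernatants. Between supernatants, 5 of 11 fell at P60, among them H3f3a (−0.70 ± 0.10) and H2afy2 (−1.25 ± 0.11, which encodes a macroH2A), and 2 rose, among them H2afj (0.60 ± 0.11).

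Of 28 tested cell cycle genes, 10 fell and 0 rose in the P60 supernatants, among them Mki67 (−2.18 ± 0.26), a marker of dividing cells, Ccnb1 (−3.52 ± 0.65), which encodes a cyclin of mitosis, and Top2a (−2.04 ± 0.29), a topoisomerase gene of dividing cells. Nasp, a histone chaperone gene, fell by 1.43 on the log2 scale and was the sole one called of 5 tested chaperones. Lsm11, a part of the U7 particle that cuts histone pre-mRNA, was at −1.66 ± 0.08 between supernatants and at −1.78 ± 0.25 between pull-downs, and in the list of 15 processing and transcription genes 3 fell and 3 rose between supernatants. Between P12 pull-down and supernatant 1 of 28 cell cycle genes was called, Mki67 (2.35 ± 0.47), with a median of −0.11 over the list, and at P60 2 of 21 were called higher and 0 lower (median 0.06). Cell cycle genes together came to 161 to 220 CPM in P12 pull-downs against 138 to 142 CPM in P12 supernatants, and to 122 to 155 CPM in P60 pull-downs against 115 to 123 CPM in P60 supernatants. All 5 oligodendrocyte markers rose and 4 of 5 markers of oligodendrocyte precursors fell in the P60 supernatants. The summed oligodendrocyte markers were at 1571 to 1611 CPM in the P60 supernatants and 872 to 955 CPM in the P12 supernatants, and the precursor markers at 256 to 270 CPM in the P60 supernatants and 313 to 347 CPM in the P12 supernatants. In the P60 pull-downs the oligodendrocyte markers were at 684 to 783 CPM and the precursor markers at 151 to 184 CPM, with 4 of 5 and 2 of 5 called lower than in the P60 supernatants. In the P12 pull-downs they were at 657 to 934 CPM and 229 to 269 CPM. Against the P12 supernatants, 2 of 5 oligodendrocyte markers were called lower and 0 higher, and 0 of 5 precursor markers lower and 1 higher. Cspg4, a precursor marker, was at 65.8, 77.7 and 30.4 CPM in the P12 pull-downs against 12.0, 16.7 and 15.3 CPM in the P12 supernatants. Astrocyte markers came to 443 to 593 CPM in P12 pull-downs against 328 to 382 CPM in P12 supernatants, and to 239 to 279 CPM in P60 pull-downs against 319 to 358 CPM in P60 supernatants. Most of the P12 sum was Gfap, at 404, 276 and 452 CPM in the pull-downs against 173, 164 and 169 CPM in the supernatants. The median over the astrocyte list was −0.21 at P12, with 1 of 5 called higher and 0 lower. Markers of tanycytes and ependyma came to 99.6 to 145 CPM in P12 pull-downs against 63.8 to 69.1 CPM in P12 supernatants, and to 67.4 to 82.6 CPM in P60 pull-downs against 54.1 to 62.8 CPM in P60 supernatants. Most of this sum was Vim, at 127, 90.6 and 107 CPM in the P12 pull-downs against 42.1, 47.0 and 47.7 CPM in the P12 supernatants. The median over the 4 markers was 0.35 at P12 and −0.86 at P60, with 1 called higher and 0 lower at each age. Neuron markers came to 2357 to 2768 CPM in P12 pull-downs against 2982 to 3372 CPM in P12 supernatants, and to 2311 to 2865 CPM in P60 pull-downs against 3127 to 3335 CPM in P60 supernatants. These markers were mixed, with 1 of 5 called higher and 2 lower at each age (median −0.19 at P12 and −0.38 at P60). Tubb3 was higher in the pull-downs, at 1267, 856 and 972 CPM against 722, 748 and 679 CPM at P12. At P60 Tubb3 was at 676, 699 and 615 CPM against 429, 419 and 417 CPM. The part of these cell types in the histone values was not tested.

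Levels of different members cannot be ordered without a choice of length. In the P60 supernatants Hist4h4 had the highest level of 4 abundant members per kb of coding sequence (139 CPM per kb, beside 121 for Hist1h4h, 119 for Hist1h1e and 98.8 for Hist2h2bb) and the lowest per kb of annotated exon (15.1, beside 80.4, 40.6 and 98.8 CPM per kb). Exons of 3 members overlap those of another gene of the table. Hist1h1e and Hist1h2be share 496 annotated bases and Hist3h2a shares 708 with Trim17, on the same strand, so reads of these genes cannot be told apart there.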

How the data were processed

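Libraries were built with a stranded total RNA kit (SMARTer) after ribosomal RNA had been removed. Per the labels and methods of the study, reads passed through FastQC, TopHat2 2.0.13 with Bowtie2 2.2.1 (genome mm10) and HTSeq. No source used here states the strand setting, the annotation, how reads that match several places were handled, or whether mice were pooled. The values deposited by the authors are raw counts per gene for 19878 genes, not normalized, and 12 of 12 files of single samples held the same values as the table. The members and lists were chosen with earlier results of these data known.

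Each comparison was fitted on all genes with edgeR 4.0.16 in R 4.3.3 (TMM scaling, the filterByExpr filter and the quasi-likelihood test), and a call needs a Benjamini-Hochberg adjusted p under 0.05. The tests within an age used 6 libraries with the replicate number as block, after the study's paired model. That equal numbers are the pairs was assumed, as neither the labels nor the methods state it. Deviations of same-numbered libraries correlated by only 0.0165 to 0.05. The difference of ages used 12 libraries with 6 pairs as block, and ages were compared within a fraction on 6 libraries without a block. Chi-square per degree of freedom between replicates was 9.86 to 92.2, so no library was a duplicate. CPM values are counts scaled by the library total alone. Fold changes are log2 ± SE. Sums over members got no test.

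Members named are those called in any comparison, the 2 of each class with the highest mean CPM, and their head-to-head partners; Pomc was added as a check. Context genes named are at most 4 of a list. Transcripts, coding sequences and lengths come from GENCODE vM21 (all 64 members matched, length known for 98.3% of genes), and promoters from RefSeq. The fits were tested on simulated data. Alternatives were other scalings, no filter, DESeq2 1.42.0, an offset for exonic length (lowess span 0.3), another use of the block, all 12 libraries, and each replicate left out. Proteins were not analysed here.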

Additional observations from a re-analysis of the deposited data

Results flagged for a closer look

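Hist1h3f, an H3 gene, stood out because its pull-down to supernatant difference was not the same at both ages by a test of the difference itself. The difference of P60 less P12 was 4.23 ± 1.04 on the log2 scale (edgeR adjusted p = 0.0453). Counts were 117, 190 and 96 in the P60 pull-downs against 233, 287 and 130 in the P60 supernatants, and 3, 4 and 22 in the P12 pull-downs against 333, 437 and 463 in the P12 supernatants. All 3 P12 pairs were lower in the pull-down. The cause was not tested.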

How the results depend on the processing

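At P12, where 5 members were called between pull-down and supernatant, 10 were called with scaling by library size alone, 8 with no filter on low counts, 15 with DESeq2, 0 with the length offset, 8 with no replicate block, 12 in 1 fit over all 12 libraries, and 2 to 9 when single replicates were left out. All genes called lower also moved, from 289 to 394 with no filter, 567 with DESeq2 and 168 with the length offset. They were 472 with no replicate block, 657 over all 12 libraries, and 241 to 249 when single replicates were left out. At P60, where 6 were called, the fit over all 12 libraries called 3, no replicate block 6, and leaving out replicates 5 to 7. All genes called lower went from 655 to 241, 486 and 275 to 683 in these settings. For the difference of ages, where 1 was called, DESeq2 called 3, the length offset 0, no replicate block 1, and leaving out replicates 0 to 3. All genes called higher went from 67 to 223, 35, 61 and 22 to 151 in these settings. Between pull-downs, where 0 were called, DESeq2 called 2, the replicate block 0, and leaving out replicates 0 to 1. Of all genes DESeq2 called 515 higher and 686 lower there, in place of 256 and 422. Between supernatants, where 15 were called, the replicate block called 15 and leaving out replicates 11 to 13. Of all genes 3182 were called higher and 3168 lower, 3295 and 3279 with the block. Leaving out replicates gave 2702 to 2957 higher and 2698 to 2871 lower. Same-numbered libraries of an age correlated in their deviations by r = 0.0165 to 0.05. The block follows the paired model of the study, with equal replicate numbers assumed to be the pairs. Scaling by library size alone set the median of all genes at −0.61 in place of −0.27 at P12 and at −0.32 in place of −0.10 at P60, and turned the split of all genes from 933 higher and 289 lower to 534 and 1387 at P12 and from 1027 and 655 to 614 and 1789 at P60. It gave 445 higher and 263 lower in place of 256 and 422 between pull-downs, and 115 and 65 in place of 67 and 105 for the difference. Direction turned for Hist1h1e (0.12) and Hist2h2bb (0.16) at P12 with the length offset, for Hist1h3f at P60 without P60 replicate 1 (−0.29 to 0.17 over single replicates left out), and for Hist1h3i at P12 without P12 replicate 1 (−1.16) or 3 (−1.79 to 2.17 over single replicates left out). None of these members was called in that comparison, and apart from the length offset the causes were not tested. Among class sums, 3 moved without the most abundant member: H2B at P60 to −0.61, and H4 to 0.81 between pull-downs and 0.19 between supernatants. In each pull-down 22 to 33 of 64 members were at 0, against 5 to 11 in each supernatant, and this did not follow depth among the pull-downs, where the deepest had 33 at 0 and the shallowest 31.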
